A study of Mus musculus with 36 samples.

Results

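The expression of 6 of the 21705 genes in the deposited table was followed through every library of a mouse bladder cancer series: Smc1b, Ctnnd2, Lrmp, Slc5a7, Trh and Expi. Smc1b and Ctnnd2 were chosen because they are high in primary UPPL tumours, and the other 4 because they are high in tumours grown from the UPPL1541 line. None of the 6 is a gene of the bladder lining by its known function. The members were thus selected on their measured levels in these same libraries. The choosing values are given below as a description without a test, and tests are given only for genes or comparisons that the choice did not use. The choice set no numerical threshold.

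The series holds 36 RNA sequencing libraries. UPPL primary tumours (9) carry Upk3a-CreERT2, in which the promoter of a urothelial surface gene drives a tamoxifen-dependent Cre, with p53f/f, Rosa26LSL-Luc and 1 further allele, and are labelled untreated. BBN primary tumours (11) have the genotype label Ctrl and were treated with N-butyl-N-(4-hydroxybutyl)nitrosamine, a bladder carcinogen. Line-derived tumours came from UPPL1541 (4, the UPPL genotype), BBN963 (2, Ctrl) and MB49 (4, Ctrl), all untreated, and each group therefore rests on 1 line. Untreated cultures of UPPL1541, BBN963, MB49 and 3 KT lines (KT1044, KT1970 and KT1975) gave 1 library each. All cultures have the genotype label Ctrl, UPPL1541 included, and the meaning of KT is not given. Ages, hosts and the use of separate animals are not stated, so p-values measure the spread between these libraries only. Lines UPPL1541 and BBN963 share their number with a primary tumour of the same name.

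Values are relative: in each library the authors set the upper quartile of the values above 0 to about 1000. A single read was worth 0.786 to 1.46 units, and libraries held 9.29 to 17.9 M reads. A value of 0 allows up to 3 reads, or 2.36 to 4.37 units, by counting error alone. Among the lowest values above 0, the commonest was 1 read in cultures but 2 to 19 reads in tumours. It was 10 reads or more in 5 of 30 tumours, so low tumour values are coarse. A 0 in a tumour may therefore allow more than 3 reads. Krt5, a basal keratin gene, averaged 139116 in UPPL primary, 142990 in BBN primary and 127075 in UPPL1541 line-derived tumours. Krt5 reached only 11.7 in the MB49 line-derived tumours, which carry the same bladder tumour label. It is 1 of 14 listed urothelial genes, of which 12 were above 0 in at least 1 MB49 line-derived tumour. The 14 summed to 16491 to 26888 there, against 139174 to 158370 in UPPL1541 line-derived tumours. Krt5 alone does not measure urothelial identity.

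The 6 genes have unrelated roles. Smc1b encodes a cohesin subunit of meiotic chromosomes, and Ctnnd2 encodes delta-catenin, a relative of p120-catenin that binds cadherins and is best known from neurons. Lrmp encodes an endoplasmic reticulum protein of lymphoid and tuft cells that works with inositol trisphosphate receptors, while Slc5a7 encodes the high-affinity choline transporter of cholinergic neurons. Trh encodes the precursor of thyrotropin-releasing hormone, a hypothalamic peptide, and Expi, named Wfdc18 in RefSeq, encodes a small secreted protein of the whey acidic protein family known from the mammary gland.

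The 250 bases before the start of 4 of the genes are shown as a description, and no expression result rests on them. The first pair varies together across primary tumours. The second pair was read at high levels in 1 line but not in the primary tumour of its number. RefSeq sequences of build GRCm38.p6 were available for 5 of the 6 genes, Lrmp being the exception. Each is written 5′ to 3′ on the strand of its gene. Capitals mark TTCCCGC, an E2F-type motif, in the first sequence. In the last sequence they mark a TATA box, the letters TATAAA.
Smc1b, chr15:85131958-85132207, minus strand: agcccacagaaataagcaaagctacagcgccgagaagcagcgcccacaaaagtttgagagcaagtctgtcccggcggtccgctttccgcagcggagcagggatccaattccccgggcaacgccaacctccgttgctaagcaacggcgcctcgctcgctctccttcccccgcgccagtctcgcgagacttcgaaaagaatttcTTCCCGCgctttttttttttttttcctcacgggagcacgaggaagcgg
Ctnnd2, chr15:30172284-30172533, plus strand: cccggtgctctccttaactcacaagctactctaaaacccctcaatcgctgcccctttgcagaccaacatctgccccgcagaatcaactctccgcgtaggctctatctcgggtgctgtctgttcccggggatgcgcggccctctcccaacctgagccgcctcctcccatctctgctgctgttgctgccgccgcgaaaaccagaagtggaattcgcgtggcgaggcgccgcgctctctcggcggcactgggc
Trh, chr6:92244651-92244900, minus strand: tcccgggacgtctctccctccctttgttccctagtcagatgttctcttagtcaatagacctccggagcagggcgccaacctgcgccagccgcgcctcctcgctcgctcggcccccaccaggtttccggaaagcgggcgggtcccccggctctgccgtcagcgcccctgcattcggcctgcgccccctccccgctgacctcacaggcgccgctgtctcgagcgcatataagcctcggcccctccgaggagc
Expi, chr11:83708754-83709003, plus strand: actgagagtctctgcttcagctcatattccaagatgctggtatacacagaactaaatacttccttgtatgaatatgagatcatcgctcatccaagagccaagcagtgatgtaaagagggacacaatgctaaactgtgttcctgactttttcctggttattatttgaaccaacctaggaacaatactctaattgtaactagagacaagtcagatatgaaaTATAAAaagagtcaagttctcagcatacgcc

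The Smc1b, Ctnnd2 and Trh windows are rich in CG pairs, with 25, 21 and 25 of them against a median of 6 over 32851 promoter windows of the same length. The Expi window has 2 and that of Slc5a7, which is not printed, has 1. The Smc1b window holds TTCCCGC 48 bases before the start, and 3.82% of all windows hold it on either strand. TATAAA begins 31 bases before the start of Expi and 187 bases before that of Slc5a7, and 12.4% of all windows hold it. The cyclic AMP response element TGACGTCA, in 1.55% of all windows, was searched for on both strands and was not matched in the 5 windows. Only exact letters were searched for. The Trh window holds the near forms tgacctca and tataag, which were not counted, so it is not shown to lack such elements. No matches overlap each other, and a match is a description of the letters only.

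Smc1b was read in every UPPL primary tumour and in almost no BBN primary tumour. Its values in the 9 UPPL tumours ran from 23.4 in UPPL1595, which was 20 reads, through a median of 126 to 439 in UPPL1541. UPPL1595 is a tumour of coarse low values, where the commonest low value was 17 reads, so its 20 reads are little above that step. It was at 0 in 10 of 11 BBN tumours and at 11.3, which was 10 reads, in BBN965. The groups did not overlap, and their means were 146 ± 139 (SD, n = 9) and 1.02 ± 3.40 (SD, n = 11). The log2 difference was 6.23 (SE 0.655), where log2 values are of the value plus 1, and it is given without a test because it chose the gene. Across all genes tested in this comparison 5.71% were called higher in UPPL at an adjusted p under 0.05, and nothing about the choice is read from that share.

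Ctnnd2 was also highest in UPPL primary tumours, but less exclusively. The UPPL values ran from 104 in UPPL1595 through a median of 255 to 1418 in UPPL1694. The BBN values ran from 0 through a median of 10.1 to 169 in BBN973, and 4 BBN tumours were at 0. BBN973 alone stood above 3 UPPL tumours, so the groups overlapped, and the means were 469 ± 443 (SD, n = 9) and 24.3 ± 49.1 (SD, n = 11). The log2 difference was 5.48 (SE 0.890), again without a test.

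**Figure D1:**
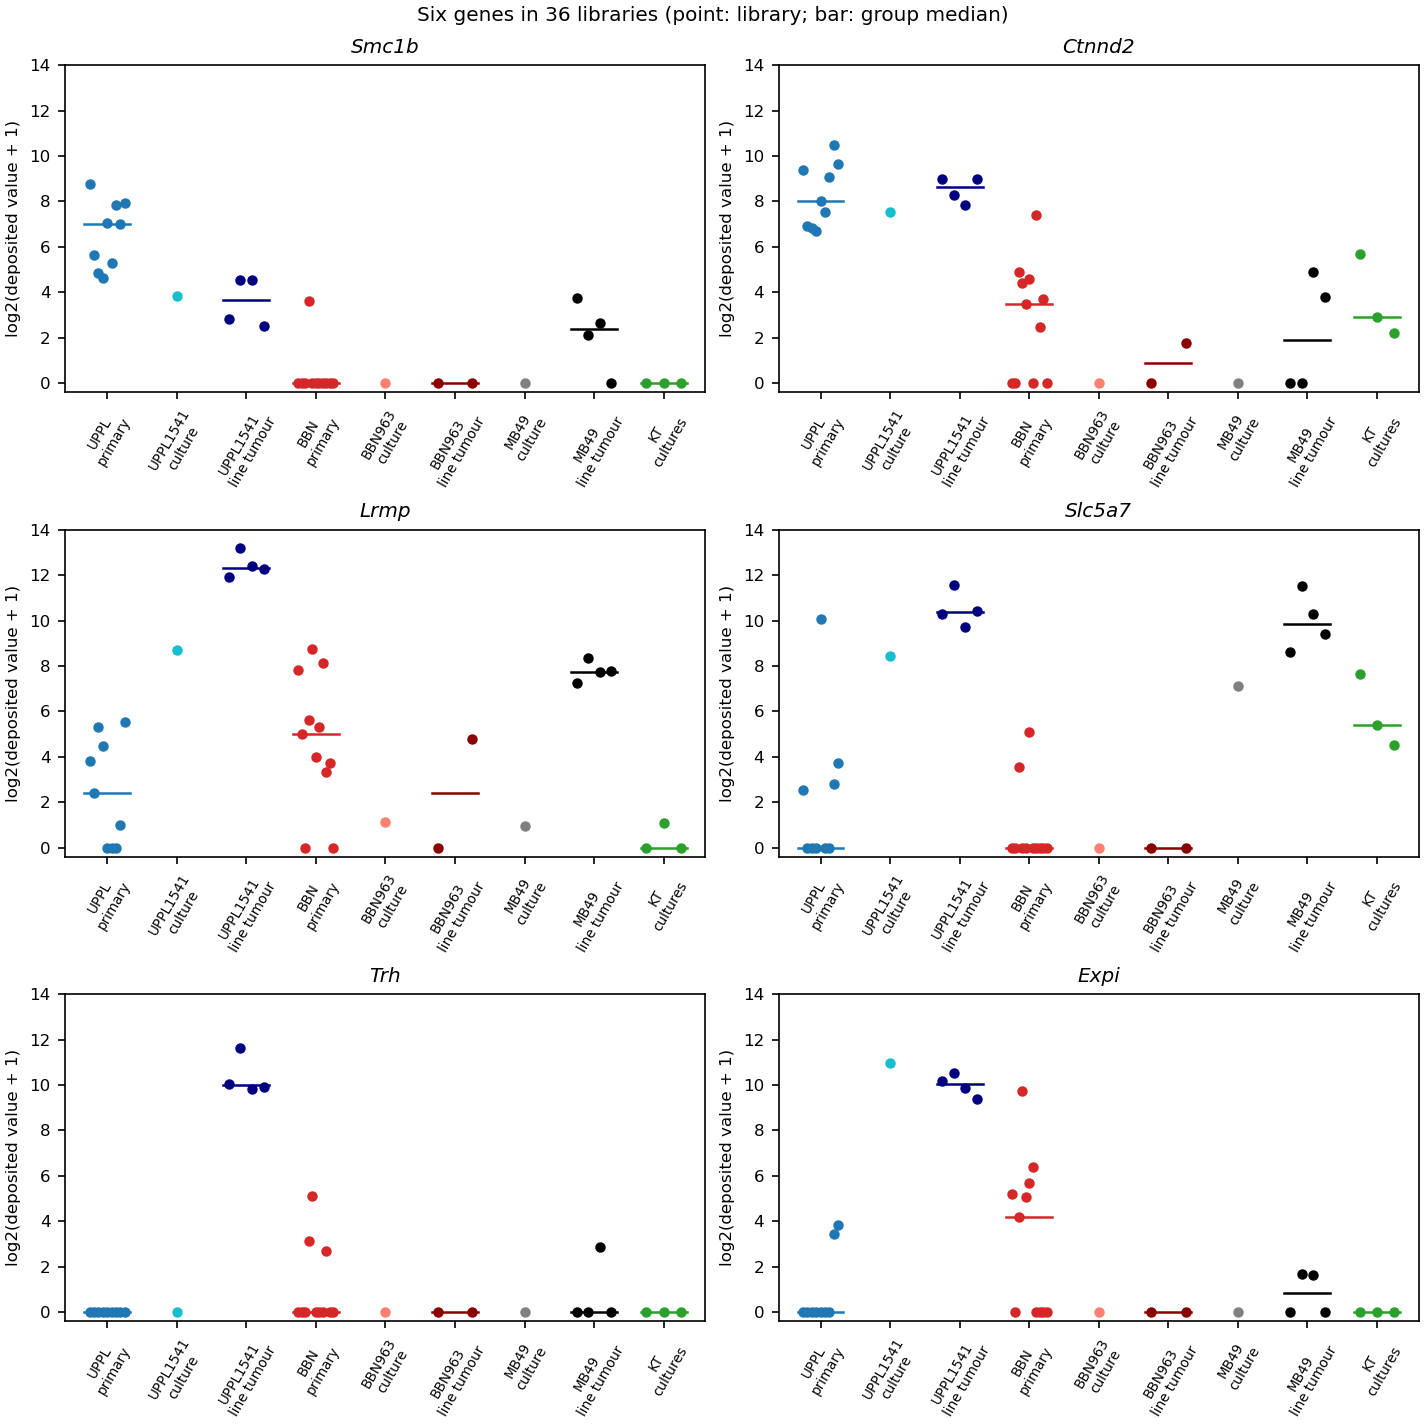
Level of each of the 6 genes, as log2 of the deposited value plus 1, in 36 libraries. Each point is a library, columns are groups and bars mark group medians. Smc1b and Ctnnd2 are high in UPPL primary tumours, whereas Lrmp, Trh and Expi are high in UPPL1541 line-derived tumours and Slc5a7 in both UPPL1541 and MB49 line-derived tumours.

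Among the 9 UPPL primary tumours the levels of Smc1b and Ctnnd2 varied together, given here as a description because these libraries chose both genes. Both were lowest in UPPL1595 (23.4 and 104) and in UPPL1591 (28.2 and 112), and both were high in UPPL1541 (439 and 675), UPPL1695 (247 and 813) and UPPL1612 (230 and 536). UPPL1694 had the highest Ctnnd2 (1418) with a middle Smc1b (126). Pearson's r of the log2 values was 0.83 and Spearman's rho was 0.80 over the 9 tumours. Without UPPL1591 and UPPL1595, the tumours farthest from the Smc1b median, r was 0.708 over 7 tumours. With UPPL1591 or UPPL1595 alone left out, rho was 0.714 in both cases. The low values of UPPL1595 are coarse, with 17 reads as the commonest. The tumours form a spread rather than separate clusters, and the points share the scaling of each library.

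**Figure D2:**
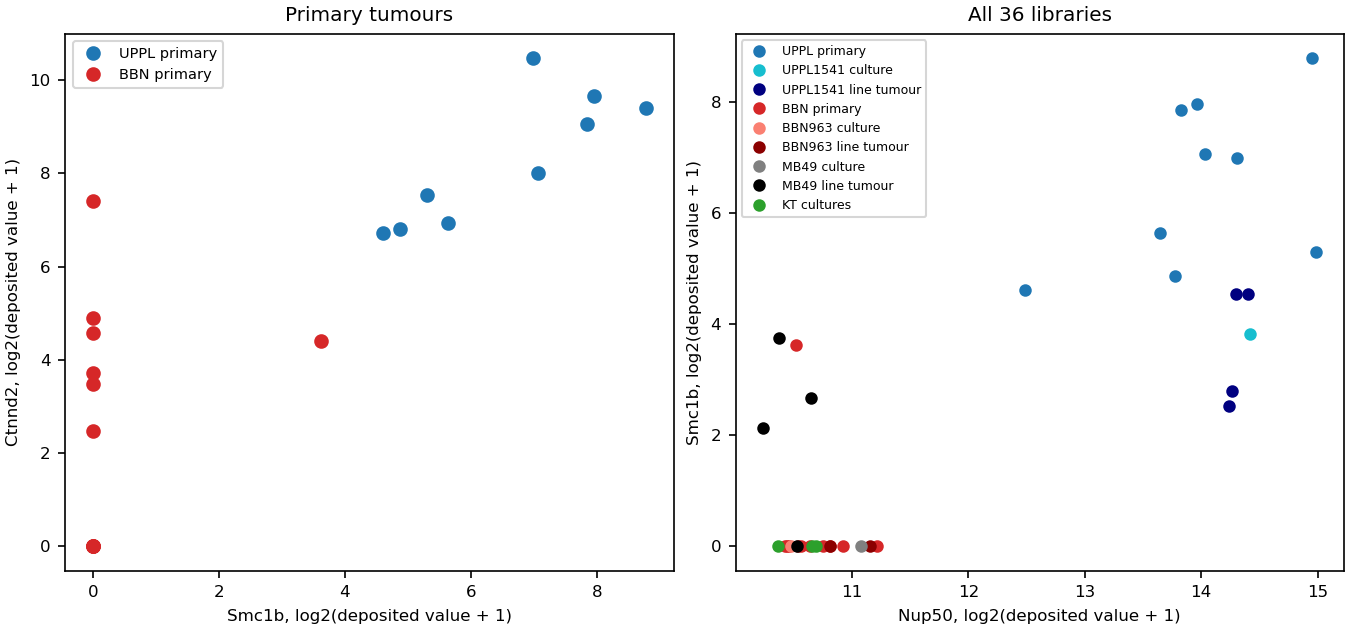
Left, Smc1b (horizontal) against Ctnnd2 (vertical) in 9 UPPL and 11 BBN primary tumours, both as log2 of the deposited value plus 1. Right, Nup50 (horizontal) against Smc1b (vertical) in all 36 libraries. The UPPL libraries lie apart on Nup50, while Smc1b in the UPPL1541 culture and line-derived tumours lies below every UPPL primary tumour.

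The genes that lie next to Smc1b on chromosome 15 were higher in UPPL on 1 side of it. In the RefSeq gene order the table's genes read Nup50, 5031439G07Rik, Mir1249, Upk3a, Fam118a, Smc1b, Ribc2, Fbln1, Atxn10, Wnt7b and Mirlet7c-2. Of these 10 neighbours 7 passed the filter on low values in the primary comparison, and 3 were called higher in UPPL: Nup50, 5031439G07Rik and Fam118a, all on the same side of Smc1b as Upk3a. That is 3 of 7 against 5.71% of all genes tested. Fbln1, a matrix protein gene on the other side, was called lower (-1.66, limma adjusted p = 0.0281), where 12.8% of all genes were. That call was lost in 5 of 28 alternatives, 1 of them the removal of UPPL1541 (adjusted p = 0.0594). Upk3a, Atxn10 and Wnt7b did not pass.

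Nup50 encodes a nuclear pore protein and is read in all 36 libraries. It averaged 18268 ± 8769 (SD, n = 9) in UPPL primary tumours, with a range of 5732 to 32494, against 1641 ± 303 (SD, n = 11) in BBN primary tumours, with a range of 1374 to 2370. The means differed 11.1-fold. The log2 difference was 3.34 (SE 0.227, limma adjusted p = 3.0e-09). In line-derived tumours Nup50 was 19390 to 21615 for UPPL1541, 1207 to 1604 for MB49 and 1799 to 2284 for BBN963, and it was 21943 in the UPPL1541 culture. All 14 UPPL libraries thus lay above all 22 others, whose highest value was 2370.

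5031439G07Rik, a gene of no assigned role here, followed the same pattern. It averaged 21801 ± 13461 (SD, n = 9) in UPPL and 1199 ± 306 (SD, n = 11) in BBN primary tumours, a log2 difference of 4.00 (SE 0.270, limma adjusted p = 3.0e-09). Its lowest UPPL library, at 6214, stood above the highest of the 22 others, at 2151. Fam118a averaged 3304 ± 2912 (SD, n = 9) and 173 ± 80.2 (SD, n = 11), a log2 difference of 3.81 (SE 0.517, limma adjusted p = 1.3e-04). For Fam118a the margin was narrow, with 343 in the lowest UPPL library and 314 in the highest of the others.

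The same 3 genes were called higher in UPPL1541 line-derived tumours against MB49 and against BBN963. The log2 differences from MB49 were 3.86 for Nup50, 3.67 for 5031439G07Rik and 2.61 for Fam118a, with limma adjusted p between 1.0e-09 and 2.7e-04. Against BBN963 they were 3.32, 4.57 and 3.81. The direction and the call of these 3 genes held in each alternative setting that was run for the 3 comparisons. Against MB49 the other 4 tested neighbours were called too, with Upk3a, Fbln1 and Wnt7b higher and Atxn10 lower. In that comparison 49.9% of all genes were called, and Upk3a passed the filter only through the UPPL1541 tumours.

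Upk3a lies between Nup50 and Smc1b, and its levels varied more within UPPL than those of Nup50. It encodes uroplakin 3a, and its promoter names the Cre allele of the UPPL mice. Its UPPL primary values ran from 0 through a median of 668 to 8508, and its BBN primary values from 0 through 5.2 to 635. The log2 difference was 3.42 (SE 1.88, limma adjusted p = 0.205). In the UPPL1541 line-derived tumours Upk3a was 15.5 to 56.1, against 0 in all MB49 and BBN963 line-derived tumours. The log2 difference was 5.04 from each. Upk3a passed the filter there only through the UPPL1541 tumours, so this difference is given without a test. In the UPPL1541 culture it was 93.4. Per the labels, all UPPL tumours carry the Upk3a-CreERT2 allele and no other tumour does, so the allele and the tumour model cannot be told apart. How the allele was built is not stated in the labels.

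**Figure D3:**
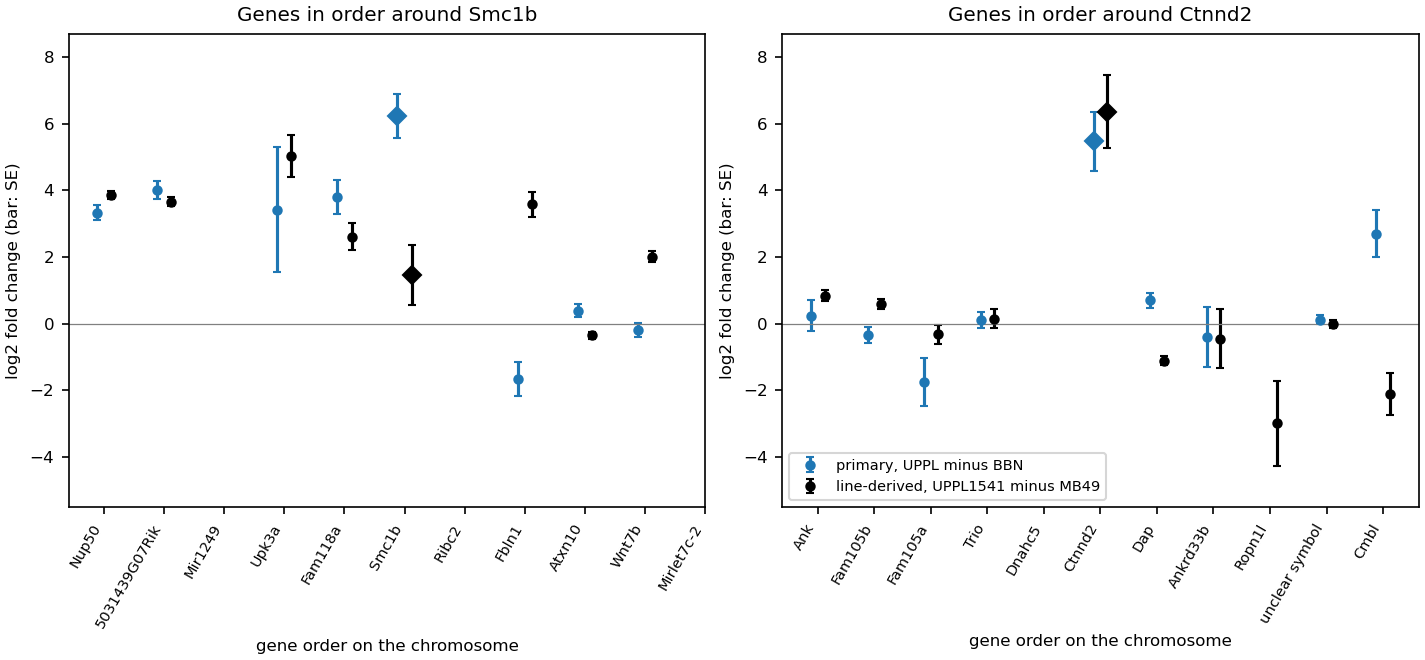
Log2 fold change with its SE for the genes in chromosomal order around Smc1b (left) and Ctnnd2 (right), with the member as a diamond. Blue is UPPL minus BBN primary tumours and black is UPPL1541 minus MB49 line-derived tumours, and a gene without a point did not pass the filter. Nup50, 5031439G07Rik and Fam118a lie between 2.61 and 4.00 in both comparisons.

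Fam118a and Smc1b overlap in RefSeq, and the files do not state whether reads were counted by strand. Reads in the overlap therefore cannot be assigned to 1 of them with certainty. Both were lower in the line than in the primary tumour of its number. Fam118a was 5603 in the UPPL1541 primary tumour, 1711 in the culture and 1213 to 1621 in the line-derived tumours, and Smc1b was 439, 13.1 and 4.76 to 22.3.

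Ctnnd2 lies on the same chromosome as Smc1b, and 2 of its own neighbours were called higher in UPPL primary tumours. Of 10 neighbours 8 were tested in primary tumours, and Dap (log2 difference 0.71) and Cmbl (2.71) were these genes, against 5.71% of all genes. Dap lost its call in 10 of 28 alternatives (adjusted p = 0.0503 to 0.0999), among them the removal of BBN965, BBN968, BBN972, BBN974, UPPL1541, UPPL1544, UPPL1597 or UPPL1694. Against MB49 Dap and Cmbl were called lower in UPPL1541 line-derived tumours (-1.11 and -2.10), while Ank and Fam105b were called higher (0.85 and 0.59). The Cmbl call was lost without MB49 tumour 4 (adjusted p = 0.0525).

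Followed from tumour to line, Smc1b was far lower in UPPL1541 culture and line-derived tumours than in the primary tumour, and Ctnnd2 less so. The UPPL1541 primary tumour had 439 for Smc1b, the UPPL1541 culture 13.1 (14 reads), and the 4 line-derived tumours 5.97, 22.2, 22.3 and 4.76. The primary value was 33.6 times that of the culture and 31.8 times the mean of the line-derived tumours, and no line-derived tumour reached the lowest of the 9 primary tumours. A single primary library and a single culture allow no test of that drop. Between the line-derived tumours and the culture Smc1b differed by -0.21 (SE 1.41, limma adjusted p = 0.944), the sign turned when UPPL1541 line-derived tumour 1 or 4 was left out (0.05 and 0.15), and quantile normalization gave -2.72 (adjusted p = 0.176).

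For Ctnnd2 the same steps gave 675 in the primary tumour, 185 in the culture and 515, 313, 226 and 506 in the line-derived tumours. The line-derived mean was 2.11 times the culture value, a log2 difference of 0.99 (SE 1.73, limma adjusted p = 0.729). The comparison rests on a single culture, and these values do not show that the levels are alike. In this comparison 24.9% of all genes tested were called in either direction, 17% higher and 7.96% lower.

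**Figure D4:**
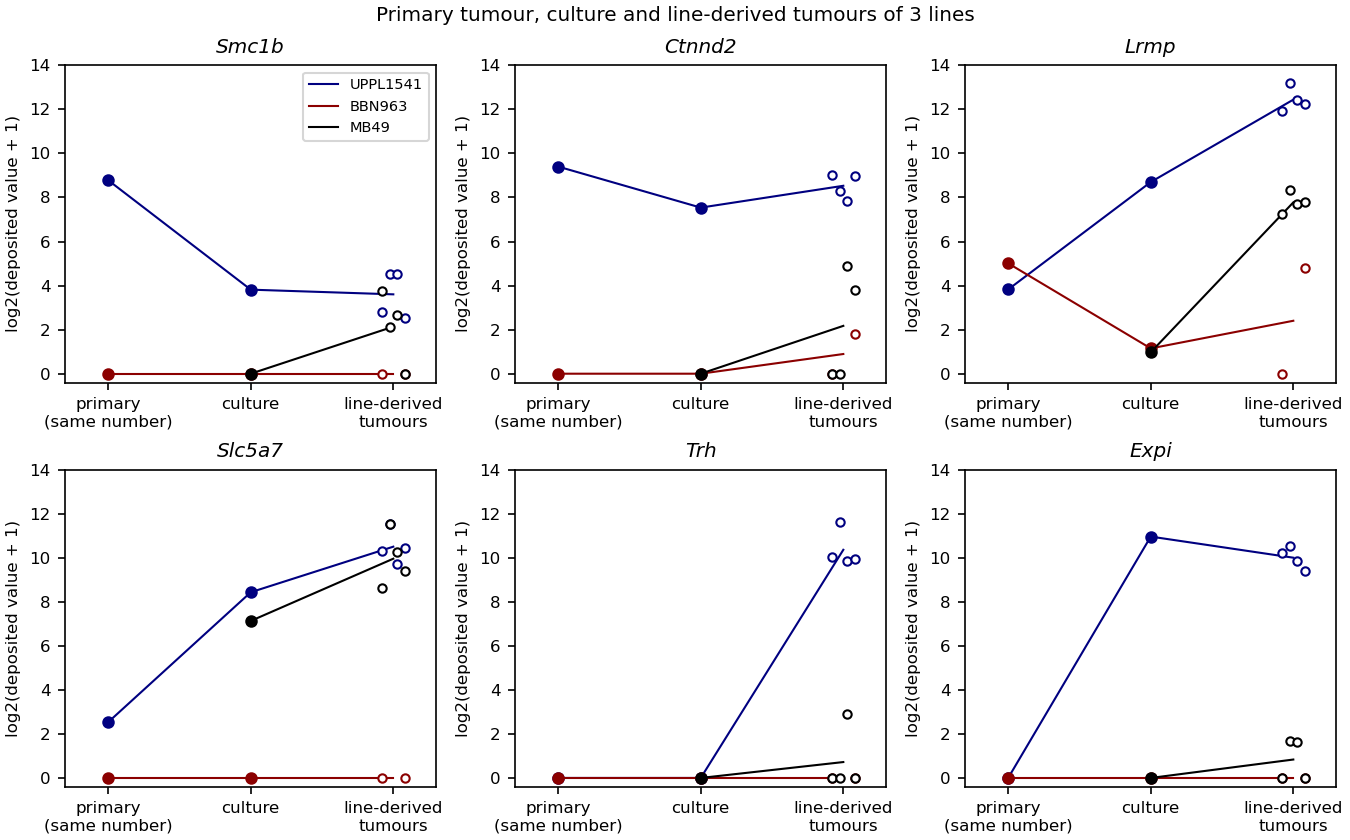
Each gene in the primary tumour that shares the line's number, the culture and the line-derived tumours, as log2 of the deposited value plus 1. Open circles are single line-derived tumours, lines join their means, and MB49 has no primary tumour here. Smc1b drops from 439 to 13.1 in UPPL1541, Trh appears only in the line-derived tumours, and Expi first appears in the culture.

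Against the other lines, Ctnnd2 was higher in UPPL1541 line-derived tumours. MB49 line-derived tumours had 0, 0, 28.8 and 12.8, and BBN963 line-derived tumours had 0 and 2.45. No value of either group reached the lowest UPPL1541 tumour, at 226. The log2 differences were 6.36 from MB49 (SE 1.09, limma adjusted p = 5.8e-04) and 7.64 from BBN963 (SE 1.34, limma adjusted p = 0.00213), and both calls held in all 18 alternative settings. BBN963 rests on 2 libraries.

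Smc1b gave a weaker picture in the same libraries. MB49 line-derived tumours had 12.5, 3.37, 5.33 and 0, which overlapped UPPL1541, and BBN963 line-derived tumours were both at 0. The difference from MB49 was 1.47 (SE 0.895, limma adjusted p = 0.199). That from BBN963 was 3.60 (SE 1.10, limma adjusted p = 0.0303, and 0.0285 without the filter). It lost its call in 8 of 17 alternatives, among them edgeR (0.0753) and quantile normalization (0.492), both adjusted p. So did the removal of UPPL1541 tumour 2 (adjusted p = 0.0562) or 3 (0.0628), and of either BBN963 tumour, which leaves 1 library. Smc1b passed the filter through UPPL1541 tumours 2 and 3 and MB49 tumour 1. The commonest low value was 19 reads in BBN963 tumour 1, above the 4 to 18 Smc1b reads of the UPPL1541 tumours. A 0 in that library therefore says little. So Ctnnd2 alone was called higher against MB49, where 27.3% of all genes were. Both were called against BBN963, where 21.4% were, with 7.37% lower and 28.8% in either direction, and the Smc1b call was not stable.

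Other genes of meiosis and cohesin gave no call beside Smc1b in primary tumours. Of 24 listed genes of meiosis and cohesin 23 were in the table, 11 of them at 0 in all UPPL primary tumours, and 7 were tested. With limma none was called between UPPL and BBN primary tumours, none had an unadjusted p under 0.05 and edgeR called none. Smc1a, the somatic counterpart of Smc1b, differed by 0.14 (SE 0.135). The list's median difference was 0.11 against -0.19 over all genes. Against MB49, where 22.6% of all genes were lower, 5 of 9 tested genes were, among them the cohesin genes Smc1a (-0.43) and Smc3 (-1.09), and those 2 were also lower in UPPL1541 line-derived tumours than in the culture (-1.14 and -1.08).

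Relatives of delta-catenin and cadherin genes were called in both directions in primary tumours. Ctnnd1, which encodes p120-catenin, and Arvcf, its close relative, were higher in UPPL (0.51 and 1.21). The cadherin genes Cdh3 and Cdh11 were lower (-0.998 and -3.29). That is 2 of 13 higher and 2 lower, against 5.71% and 12.8% of all genes, with 9 of 13 not passing. The Ctnnd1 call was lost in 6 of 28 alternatives (adjusted p = 0.0503 to 0.0768), among them the removal of BBN972, BBN974, UPPL1541 or UPPL1544. The Cdh11 call was lost without the tumours of coarse low values (0.0694). Against MB49 10 of 13 were higher in UPPL1541 line-derived tumours, where 27.3% of all genes were, with a list median of 2.82 against 0.05 over all genes. Cdh1, the E-cadherin gene, stood 8.59 higher and Jup, the plakoglobin gene, 4.47 higher. Against BBN963 3 of 13 were higher and 2 lower, against 21.4% and 7.37% of all genes.

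Lrmp was the most abundant of the 6 genes in UPPL1541 line-derived tumours, and its level changed by several orders of magnitude between groups. The 4 tumours had 3823, 9338, 5420 and 4904. The culture had 415, which was 444 reads, and the UPPL1541 primary tumour 13.2, which was 11 reads. The line-derived mean was 14.2 times the culture value, and every line-derived tumour was at least 9.22 times above the culture. MB49 line-derived tumours had 152, 325, 209 and 219, BBN963 line-derived tumours 0 and 27.0, and the BBN963 and MB49 cultures 1 read each.

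In primary tumours, which did not serve to choose it, Lrmp was not higher in UPPL. UPPL values ran from 0 through a median of 4.22 to 45.9, and BBN values from 0 through 31.2 to 423. In BBN, 4 tumours, with 48.4, 223, 281 and 423, stood above every UPPL tumour, and the rest overlapped. The log2 difference was -2.19 (SE 1.15, limma adjusted p = 0.182), in a comparison that called 12.8% of all genes lower.

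Lrmp was also higher in line-derived tumours than in culture in MB49. This comparison was picked after the values were seen and has a single culture, so it is given without a test. The MB49 culture had 1 read and the 4 line-derived tumours 146 to 290 reads. The log2 difference was 6.80, and 3.24 with quantile normalization. Of all genes 23.4% were called higher in that comparison, 6.69% lower and 30.1% in either direction. Bulk libraries cannot tell more cells of a type from more RNA per cell.

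Lymphoid and tuft cell markers, the known settings of Lrmp, had higher sums in line-derived tumours than in culture, and few of the B cell genes were called. Summed B cell markers were 65.7 to 173 in UPPL1541 line-derived tumours and 2.8 in the culture, and 214 to 260 in MB49 line-derived tumours and 13.5 in the culture. Of 10 B cell markers 6 were tested, and Cd22 was called higher in both lines (5.29 and 6.30), with 1 of 6 higher for UPPL1541, where 17% of all genes were, and 3 of 6 for MB49, where 23.4% were. Ms4a1 was at 0 in all 8 tumours. Cd79a was at 0 in all 4 UPPL1541 line-derived tumours. The B cell sum was higher in MB49 than in UPPL1541 tumours, whereas Lrmp averaged 226 ± 72.4 (SD, n = 4) and 5871 ± 2405 (SD, n = 4).

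Summed tuft cell markers were 615 to 1634 in UPPL1541 line-derived tumours against 60.7 in the culture, with 4 of 7 tested genes higher. In MB49 the sums were 1632 to 3062 in line-derived tumours and 1101 in the culture, with 2 of 7 higher. Pou2f3, the tuft cell regulator, was 20.3 to 52.2 in these tumours and 0 in the culture and in the MB49 tumours, and it was called higher against the culture (4.93, limma adjusted p = 0.00333), which edgeR did not call (adjusted p = 0.0905). Trpm5, a tuft cell channel gene, was at 0 in all 4 UPPL1541 line-derived tumours. T cell markers summed to 99.1 to 693 in UPPL1541 and 687 to 1667 in MB49 line-derived tumours, with 2 of 8 and 7 of 8 higher than in culture. Macrophage markers were higher in 7 of 7 in both lines. Of all genes 17% were higher than in culture for UPPL1541 and 23.4% for MB49. The 2 of 7 tuft cell genes in MB49 and 2 of 8 T cell genes in UPPL1541 lie near these shares. The part of these cells in the Lrmp values was not tested.

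**Figure D5:**
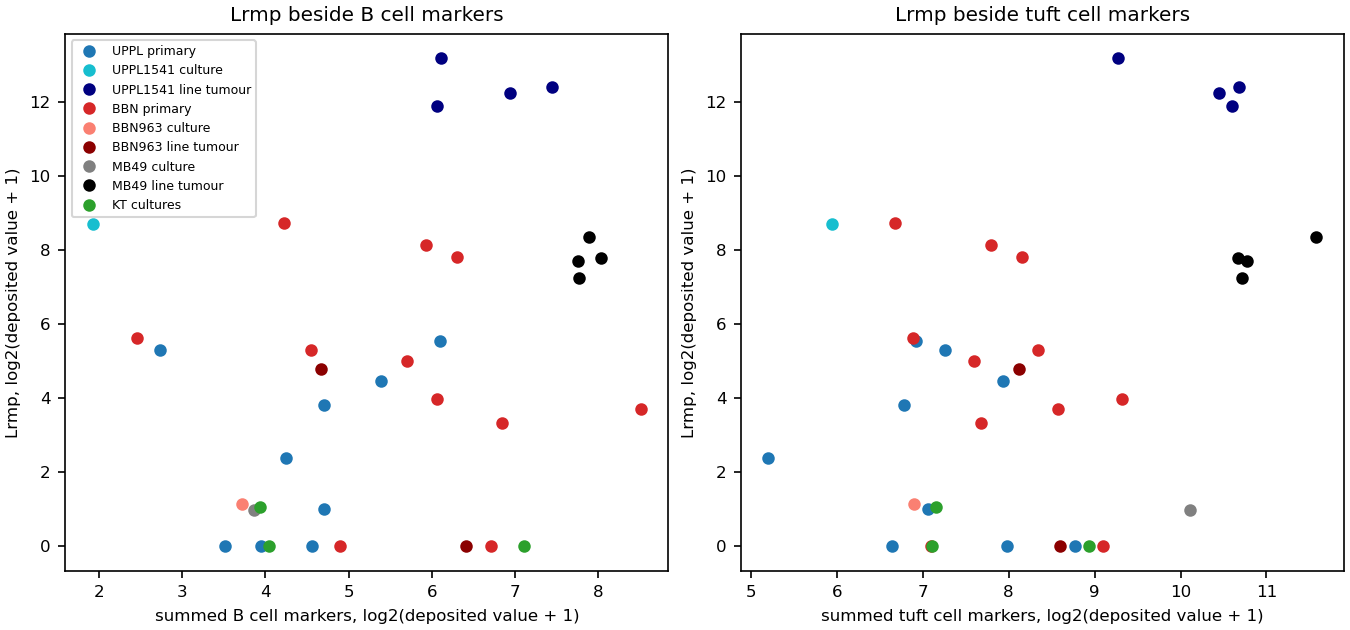
Lrmp (vertical) against the summed B cell markers (left, horizontal) and tuft cell markers (right, horizontal) in 36 libraries, all as log2 of the value plus 1. The 4 UPPL1541 line-derived tumours lie above all other libraries on Lrmp, and the MB49 line-derived tumours have the higher B cell sums of the pair.

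A list of genes around the inositol trisphosphate receptors split in direction against MB49. Of the 6 listed genes for Mrvi1, inositol trisphosphate receptors and cGMP-dependent kinases, 3 were higher and 1 lower in UPPL1541 than in MB49 line-derived tumours. Of all genes 27.3% were higher and 22.6% lower. The receptor gene Itpr1 was 1.13 higher (SE 0.398, limma adjusted p = 0.0344), and the kinase gene Prkg2 was lower (-3.71). Itpr1 lost its call in 7 of 18 alternatives (adjusted p = 0.0523 to 0.0919), the removal of MB49 tumour 1, 2 or 4 or of UPPL1541 tumour 1, 3 or 4 and the fit with tumour number as replicate block (0.0577). Against the culture 1 of 6 was lower, where 7.96% of all genes were, and none was higher, where 17% were. In primary tumours 1 of 5 was higher and 1 lower, against 5.71% and 12.8% of all genes. Of the neighbours of Lrmp on chromosome 6, 1 of 7 tested against MB49 was higher and 3 were lower, against the same 27.3% and 22.6% of all genes. The higher gene was Lyrm5 (0.60), whose call was lost without MB49 tumour 1 (adjusted p = 0.0595) or UPPL1541 tumour 2 (0.0593) or 3 (0.0552). Casc1 overlaps Lrmp, with the same limit on strand as above.

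Slc5a7 was high in tumours of 2 lines, not 1. UPPL1541 line-derived tumours had 1245, 2988, 843 and 1387, and MB49 line-derived tumours 390, 2927, 1232 and 679. The groups overlapped, with means of 1616 ± 943 (SD, n = 4) and 1307 ± 1135 (SD, n = 4). Both BBN963 line-derived tumours and the BBN963 culture were at 0.

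The cultures were lower in both lines and not empty. Slc5a7 was 344 in the UPPL1541 culture and 139 in the MB49 culture, and the line-derived means were 4.70 and 9.42 times these values. The MB49 comparison was picked after the values were seen and has a single culture, so no test is given. The KT cultures had 198, 41.8 and 22.2, so 5 of the 6 cultures held Slc5a7.

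In primary tumours Slc5a7 came from a single library. UPPL1597 had 1068, which was 1184 reads, against 4.78 in UPPL1541, 5.99 in UPPL1694, 12.2 in UPPL1695 and 0 in the other 5. In BBN tumours it was 10.8 in BBN964, 33.0 in BBN969 and 0 in the other 9. The gene did not pass the filter, and without the filter the log2 difference was 1.34 (SE 1.07, limma adjusted p = 0.439). From primary tumour to line, UPPL1541 went from 4 reads to 368 reads in culture and 679 to 2292 reads in the line-derived tumours.

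Other choline genes were called in both directions. Chat, which encodes the enzyme that makes acetylcholine, and Slc18a3, the vesicular transporter gene, were at 0 in all 36 libraries. Of 12 tested genes of choline handling, 4 were higher and 5 lower in UPPL1541 than in MB49 line-derived tumours, where the list median was -0.24. Of all genes 27.3% were higher and 22.6% lower in that comparison. Chdh, the choline dehydrogenase gene, was 7.71 higher and Slc44a2, a choline transporter-like gene, 1.43 higher. In primary tumours 1 of 12 was higher, Pcyt1a of phosphatidylcholine synthesis (1.00), against 5.71% of all genes. In MB49 line-derived tumours 3 of 12 were higher than in the culture, Slc44a1 among them (1.85). That is near the 23.4% of all genes called higher there. Among the neighbours of Slc5a7 on chromosome 17, 1 of 6 was called higher against MB49, Sult1c2 (3.67), and 3 were lower, against the same 27.3% and 22.6% of all genes.

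Trh appeared only after the line was grown as tumours. The 4 UPPL1541 line-derived tumours had 1044.2, 3129, 918 and 979, which were 739 to 2400 reads. The UPPL1541 culture had 0 reads and so did the UPPL1541 primary tumour. Against the floor of 3 reads in the culture, the mean of the line-derived tumours was at least 542-fold higher and their lowest at least 328-fold higher.

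Elsewhere Trh was close to absent. It was at 0 in all 9 UPPL primary tumours, all 6 cultures and both BBN963 line-derived tumours, at 6.40 (6 reads) in MB49 line-derived tumour 3, and at 0 in the other 3 MB49 tumours. In BBN primary tumours it was 34.1 in BBN968, 7.88 in BBN965, 5.43 in BBN974 and 0 in the other 8. Trh did not pass the filter in primary tumours, and without it the log2 difference was -0.997 (SE 0.575, limma adjusted p = 0.265).

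The machinery of the hormone was partly present. Trhr, the receptor gene, held 1.30 in 1 UPPL1541 line-derived tumour and 0 elsewhere, and the prohormone convertase gene Pcsk2 was at 0 in all 36 libraries. Its relative Pcsk1 was at most 7.45 in UPPL1541 line-derived tumours. Qpct, which encodes a glutaminyl cyclase, was higher in these tumours than in the culture (3.57, limma adjusted p = 0.0134). It was the only 1 of 5 tested, where 17% of all genes were higher, and lost its call with quantile normalization. Against MB49 2 of 5 were higher and 1 lower, with Cpe, a carboxypeptidase gene, at 3.54 and Pam, the amidating enzyme gene, at -1.43. Of all genes 27.3% were higher and 22.6% lower against MB49.

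Neuronal and neuroendocrine markers gave no uniform change beside Trh, Slc5a7 and Ctnnd2. Of 10 tested genes 2 were higher and 1 lower in UPPL1541 line-derived tumours than in the culture, with a list median of 0.03. Of all genes 17% were higher and 7.96% lower, so both counts lie near these shares. Snap25, a synaptic gene, was 7.54 higher (limma adjusted p = 1.0e-04) and Insm1 was lower (-4.12, limma adjusted p = 0.0269, not called by edgeR). Chga was at 0 in all UPPL1541 line-derived tumours, the culture and all UPPL primary tumours. The summed markers were 913 to 2244 in UPPL1541 and 6113 to 12663 in MB49 line-derived tumours. In primary tumours 1 of 5 was lower in UPPL, where 12.8% of all genes were.

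Expi was already high in the UPPL1541 culture. The culture had 1984, which was 2125 reads, and the line-derived tumours 1172, 1478, 934 and 672. All 4 tumours lay below the culture, and their mean was 0.54 times its value. The UPPL1541 primary tumour had 0 reads, and against a floor of 3 reads the culture was 553-fold higher. The commonest low value in that tumour was itself 3 reads, so a 0 there may allow more. The fold is therefore not a firm lower bound. MB49 line-derived tumours had 0, 2.24, 2.13 and 0, or at most 2 reads, and the other cultures and the BBN963 line-derived tumours had 0.

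In primary tumours Expi was read in more BBN than UPPL tumours. It was at 0 in 7 UPPL tumours, at 9.99 in UPPL1694 and at 13.3 in UPPL1695. In BBN tumours it was at 0 in 5, and the other 6 had 866 in BBN965, 82.0, 50.3, 36.3, 32.8 and 17.1, each above every UPPL tumour. The gene did not pass the filter, and without the filter the log2 difference was -2.49 (SE 1.16, limma adjusted p = 0.161).

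Other genes with the whey acidic protein domain were compared with Expi. Wap itself was at 0 in all 36 libraries. Of 5 tested genes 3 were higher in UPPL1541 than in MB49 line-derived tumours: the protease inhibitor gene Slpi (2.09), Wfdc5 (8.41) and Wfdc12 (7.11). In that comparison 27.3% of all genes were higher. Against the culture 2 of 5 were higher, Wfdc5 among them (6.89), and 1 was lower, Wfdc2 (-2.36). Of all genes 17% were higher and 7.96% lower there. In primary tumours none of 4 was called by limma, none had an unadjusted p under 0.05 and edgeR called none. Of the mammary and salivary markers Csn2 was at 0 throughout. Against MB49 2 of 3 tested genes were higher, with Elf5 at 10.81, and 1 was lower, where 27.3% and 22.6% of all genes were. Against BBN963, whose tumours had no Expi reads, none of 3 was called by limma or edgeR. In primary tumours neither of 2 was called by limma, 1 had an unadjusted p under 0.05 and edgeR called 1.

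Germ cell markers, listed beside Smc1b, stayed low. Their sum was 0 to 57.2 in UPPL and 13.5 to 146 in BBN primary tumours, 8 of 13 were at 0 in all UPPL primary tumours, and the only 1 tested was lower in UPPL with limma and not called by edgeR. Urothelial markers were higher beside Smc1b and Ctnnd2 in primary tumours. Of 14 tested genes 7 were higher in UPPL than in BBN, where 5.71% of all genes were, with Upk1a 6.44 and Upk1b 4.42 higher, and none was lower. The Upk1b call was lost without UPPL1541 and BBN963 (adjusted p = 0.0507). Their sum, led by keratins, overlapped at 128311 to 383070 and 148830 to 263002. Macrophage markers were lower in UPPL primary tumours in 4 of 7, where 12.8% of all genes were, with Csf1r at -2.15. The part of these cells in the Smc1b and Ctnnd2 values was not tested.

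Likeness over all 36 libraries was described by Pearson's r of log2 values among 11654 genes. The points share library scaling and groups, and no test is attached. Smc1b was most like Fam118a (0.861), Nup50 (0.820) and Atp8a2 (0.816), and Ctnnd2 most like Nup50 (0.821), Ank3 (0.802) and Fam118a (0.800). Trh was most like Serpinb3d (0.939), Kera (0.884) and Serpinb3b (0.868). Serpinb3d averaged 298 in UPPL1541 line-derived tumours and 0 in the other 8 groups.

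For the remaining genes the likeness was looser. Lrmp was most like Ephb6 (0.727), Adamts3 (0.727) and Trh (0.725). Slc5a7 was most like Phex (0.861), Mitf (0.780) and Cp (0.774), genes with means of 109, 173 and 21424 in MB49 line-derived tumours. Expi was most like Itgb8 (0.785), Pde1c (0.773) and Stac (0.764).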

How the data were processed

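Per the labels' protocols, RNA was extracted with RNeasy and made into libraries with a TruSeq Stranded mRNA kit. RSEM, SAMtools, Picard 1.64 and mm9 are named in the submitters' processing notes, and the role of each is not given in the sources used here. The deposited values are a scaled signal per gene, which the authors set to an upper quartile of about 1000 per library (998.9 to 1000.0). Dividing by the value of 1 read gave whole numbers (within 0.02) for 92.0 to 96.3% of values above 0. Of the deposited columns 36 were used and 0 lacked a sample. Groups came from the labels. The file's header writes KAT for the KT lines.

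Values were fitted as log2(value + 1) with limma 3.58.1 (trend) in R 4.3.3 over all genes at 10 or more in as many libraries as the smallest replicated group, with Benjamini-Hochberg adjustment over all of them. Line-derived groups shared 1 fit, and so did these and the 3 cultures, where each lone culture was assumed to vary like the tumours. On recovered reads, edgeR 4.0.16 quasi-likelihood was an alternative, and it called 1098 genes higher and 893 lower in primary tumours, against 732 and 1639 with limma. Other alternatives changed the pseudocount, filter, scaling and libraries. The script was tested on simulated data. Python 3.11.15, scipy 1.17.1 and matplotlib 3.10.9 were also used.

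The members and all gene lists were chosen with earlier results of these data known. Named were the 6 genes, up to 5 neighbours on each side in RefSeq gene order where called, the first 2 and up to 2 further genes of a list, and the 3 genes most like each member, plus Upk3a and genes at 0, which were chosen after their values were seen. RefSeq held 21562 of 21705 genes, 99.3%. RefSeq coordinates are in GRCm38.p6 and were not mixed with mm9. The MB49 tumour and culture comparison was added after the data were seen. Some items, among them 1 allele of the UPPL genotype, are not reported here.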

Additional observations from a re-analysis of the deposited data

Results flagged for a closer look

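Slc5a7 in primary tumour UPPL1597, at 1067.63, stood far from the other 8 UPPL primary tumours, whose highest was 12.2. Its gap to that tumour was 0.63 of the log2 range of the group, above Dixon's 95% critical value.

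Trh stood apart in 2 libraries. UPPL1541 line-derived tumour 2, at 3129.07, was followed by 1044.2 in the next tumour, in the group that served to choose the gene. MB49 line-derived tumour 3, at 6.4, which was 6 reads, was the only MB49 tumour above 0, and with the other 3 at 0 its gap equals the whole range at any value. Such gaps were looked for in 18 combinations of gene and group, and these 2 and that of Slc5a7 were found. The 11 BBN primary tumours were not examined in this way. The nominal chance rate is about 1 in 20, and it does not hold for groups with many values tied at 0.

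The KT cultures enter no comparison, and 2 of the 6 genes were read there above the limit that a count of 0 allows. Ctnnd2 was 49.96 in KT1044, 6.6 in KT1970 and 3.56 in KT1975. Slc5a7 was 197.64 in KT1044, 41.8 in KT1970 and 22.22 in KT1975. Both genes were highest in KT1044.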

How the results depend on the processing

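Of 76 single-gene results, 62 kept their direction and side of the threshold in every alternative run. Over 1523 refits of these, 51 lost a call and 2 turned sign. The sign turned for Smc1b in UPPL1541 line-derived tumours against culture, which was -0.527 to 0.146 with 1 library left out, 0.054 without UPPL1541 tumour 1, and -2.724 with quantile normalization. The count of genes called between UPPL1541 and BBN963 line-derived tumours was 4208, and 2576 to 4433 with 1 library left out, the lowest without BBN963 tumour 1, which leaves BBN963 with 1 library. With tumour number as replicate block it was 2682. Deviations from group means showed little correlation between tumours with the same number (r -0.093 to 0.066 over 8 pairs, 0 over 0.1). The deviations of the 2 BBN963 tumours mirror each other by construction. Whether tumours of the same number shared a host or a batch was not tested. The block kept the calls of Smc1b against BBN963 (adjusted p = 0.0406) and of Ctnnd2 against both lines, and among the genes refitted with it only Itpr1 against MB49 lost its call (0.0577).

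Scaling moved the share of calls that were higher. It was 30.9% in primary tumours, 50.1% with quantile normalization, 48.6% with median-of-ratios scaling and 55.1% with edgeR. Against BBN963 it was 74.4%, then 49.8%, 59.7% and 53.6%. In UPPL1541 tumours against culture it was 68.1%, 51.7% with quantile normalization and 51.5% with edgeR, and in MB49 77.8%, 53.3%, 65.8% and 60.9%. The median log2 difference of all genes was -0.191 in primary tumours (-0.027 with quantile normalization), 0.323 against BBN963 (-0.027), 0.223 for UPPL1541 against culture (-0.101) and 0.389 for MB49 (-0.232). Depth limits low values: a listed 0 allows 3 reads.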
